A study of Homo sapiens with 22 samples.

Results

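The serpins are a family of protease inhibitors and of related proteins that have lost that activity, and their human genes carry symbols made of SERPIN, a clade letter from A to I and a number. Symbols of that form were taken, and 34 of the 26485 symbols in the count tables are described. Of these, 25 had 10 or more counts in at least 1 of the 22 libraries and were used, namely 6 of 11 clade A genes, 10 of 13 clade B genes, 2 clade E genes, both clade F genes, 1 of 2 clade I genes and the only members of clades C, D, G and H. SERPINA2, SERPINA4, SERPINA7, SERPINA9, SERPINA11, SERPINB10, SERPINB11, SERPINB13 and SERPINI2 stayed under 10 counts in every library.

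A serpin works as a bait. The target protease cuts its exposed loop, the serpin folds over and drags the enzyme into a dead, covalent complex. Clade A, C, D, F and G members are mostly secreted plasma proteins that hold coagulation, complement and elastase in check, clade B members mostly stay inside the cell and many belong to squamous epithelia, and SERPINE2 of clade E blocks thrombin and urokinase at the cell surface.

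The libraries were all labelled MDA-MB231, an established triple-negative breast cancer line, and came from 3 experiments. In the first, wild-type cells on day 2 were given either vehicle (Ctrl, treatment label DMSO, 2 libraries) or Nexturastat A, an inhibitor of the deacetylase HDAC6, at 7.65 uM for 2 days (2 libraries). In the second, cells on day 0 carried a control hairpin (shCtrl) or an HDAC6 hairpin (shHDAC6-1 or shHDAC6-2), with 3 libraries each. In the third, wild-type cells on day 2 had DMSO, HPOB or Tubastatin A (titled TSA), also HDAC6 inhibitors, with 3 libraries each and no dose of HPOB or Tubastatin A in the labels; nothing in the labels says whether the hairpin cells were clones or pools, or whether the replicates were separate cultures, so p-values measure the spread between these libraries only.

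Total counts per library ran from 31238740 to 85942315, and 61.9% to 69.9% of all values between 1 and 100 were even numbers, so counting intervals below may be too narrow. HDAC6 stood at 43.0 and 50.2 CPM (counts divided by library size, scaled over all 22 libraries) in shCtrl replicates 1 and 2, at 11.2 to 12.9 in their hairpin libraries, and at 26.2 against 11.4 and 13.96 in replicate 3. Replicates 1 and 2 of the hairpin experiment did not look like the other stocks. Their shCtrl libraries held CD44 at 18.9 and 19.7 CPM against 407 in replicate 3 and 330 or more in Ctrl and DMSO, and CDKN2A, a gene this line is known to have lost, at 135 and 139 CPM against 0 in Ctrl, DMSO and shCtrl replicate 3. The hairpin libraries of replicate 3 held CDKN2A at 8.83 (shHDAC6-1) and 29.05 CPM (shHDAC6-2) and KRT14 at 93.5 and 31.9 CPM against 0.84 in their control. Replicate 3 is therefore described apart, and its hairpin libraries are read with these values beside them. In these bulk samples, fewer cells of a type and less RNA per cell cannot be told apart.

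Of the 34 serpin genes, 23 sit in 3 clusters and 11 elsewhere. The clusters hold 10 on chromosome 14 within 343.6 kb, 10 on chromosome 18 within 543 kb (7 of them used) and 3 on chromosome 6 within 139.8 kb. The chromosome 18 cluster holds the members with the highest ratios under Nexturastat A, SERPINB7 (chr18:63752935-63805376, plus strand) and SERPINB2 (chr18:63871692-63903890, plus strand), and also SERPINB8, whose level did not pass the test there. Below are the 250 bases before the annotated starts of these genes, from the RefSeq table for GRCh38.p14, which had 34 promoters of 21 of the 25 members. Capitals mark matches to the AP-1 motif TGACTCA and the TATA motif TATAAA on either strand. They are shown so that the 3 neighbours can be read side by side.
SERPINB7, start 2, chr18:63775168-63775417, plus strand: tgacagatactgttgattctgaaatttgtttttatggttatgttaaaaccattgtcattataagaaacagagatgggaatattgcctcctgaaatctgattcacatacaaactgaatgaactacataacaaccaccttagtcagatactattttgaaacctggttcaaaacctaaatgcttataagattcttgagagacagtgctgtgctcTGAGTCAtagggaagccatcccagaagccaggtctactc
SERPINB7, start 3, chr18:63777531-63777780, plus strand: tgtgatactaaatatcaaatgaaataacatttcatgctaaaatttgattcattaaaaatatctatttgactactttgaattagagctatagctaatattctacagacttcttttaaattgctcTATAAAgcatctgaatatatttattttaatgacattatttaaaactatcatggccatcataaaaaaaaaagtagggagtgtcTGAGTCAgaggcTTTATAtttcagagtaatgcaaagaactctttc
SERPINB2, chr18:63887455-63887704, plus strand: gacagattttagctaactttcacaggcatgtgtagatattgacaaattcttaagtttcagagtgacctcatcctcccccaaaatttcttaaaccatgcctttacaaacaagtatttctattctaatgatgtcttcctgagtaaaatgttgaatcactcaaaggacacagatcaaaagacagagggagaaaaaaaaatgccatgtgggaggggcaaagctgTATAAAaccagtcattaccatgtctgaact
SERPINB8, chr18:63969831-63970080, plus strand: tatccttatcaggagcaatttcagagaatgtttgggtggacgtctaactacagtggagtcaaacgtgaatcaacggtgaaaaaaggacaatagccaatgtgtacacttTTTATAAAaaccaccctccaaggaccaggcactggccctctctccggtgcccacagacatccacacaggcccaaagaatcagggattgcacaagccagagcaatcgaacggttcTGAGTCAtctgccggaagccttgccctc
An AP-1 match lay on the minus strand 39 bases before start 2 and 45 bases before start 3 of SERPINB7, and 28 bases before the start of SERPINB8. SERPINB2 had a TATA match 30 bases before its start and no AP-1 match in this window, and start 1 of SERPINB7 had neither. In windows of 300 bases (250 before and 50 after a start), AP-1 was matched in 3 of the 34 serpin promoters (8.82%) and in 4.95% of all 35116 promoters. TATA was matched in 7 serpin promoters (20.6%) and in 11.5% of all. Further words searched on both strands were CAGACA (13 serpin promoters, 16.9% of all), CACGTG (1, in SERPINE2; 7.26% of all) and GGGCGG (12; 45% of all). The TATA matches of SERPINB8 on its 2 strands overlap. The part of these words in the levels of the genes was not tested.

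The serpins with the highest levels differed between the stocks. Levels between genes are given per length, as CPM per kb of exon (RPKM). In Ctrl, SERPINH1, a collagen chaperone without inhibitor activity, had 46.1 ± 1.85 RPKM (SD, n = 2). Next came SERPINB1, an inhibitor of neutrophil proteases, at 26.9 ± 0.99, then SERPINE2 at 17.6 ± 0.54 and SERPINB6, an intracellular inhibitor, at 12.7 ± 0.12. On the lengths used, each differed from its neighbour in this order by more than the sum of their SDs. SERPINE2 has 3149 bases of merged exons, but its longest annotated transcript has 5989. Its rank and share in every stock therefore depend on the length used. Clade B made up 37.6% of the RPKM summed over the 25 genes, clade H 36.9% and SERPINE2 alone 14.1%, and 10 of the 25 genes reached 1 RPKM.

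In DMSO, SERPINB1 at 49.4 ± 0.94 RPKM (n = 3) and SERPINH1 at 47.6 ± 1.46 lay within their spread of each other. SERPINB6 (17.3 ± 0.53) and SERPINB9 (17.2 ± 1.05), the inhibitor of granzyme B, followed and did not differ beyond their spread. In shCtrl replicates 1 and 2, SERPINF1 (PEDF, a secreted factor without inhibitor activity) led at 111 ± 2.05 RPKM and made up 59.7% of the sum over the 25 genes, ahead of SERPINH1 at 30.7 ± 1.40, SERPINE2 at 13.9 ± 0.48 and SERPINB1 at 10.2 ± 1.74. In the shCtrl library of replicate 3 the order was that of Ctrl, with SERPINH1 at 49.1, SERPINB1 at 21.1, SERPINE2 at 13.003 and SERPINB6 at 10.5 RPKM. The same line name thus covered libraries led by SERPINH1, by SERPINB1 together with SERPINH1, and by SERPINF1, as the heat map of levels shows. The lowest members were SERPINA6, SERPINA10, SERPINA12, SERPINB3, SERPINB4, SERPINB12, SERPINC1 and SERPINE3, which stayed under 1 CPM in every library.

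**Figure D1:**
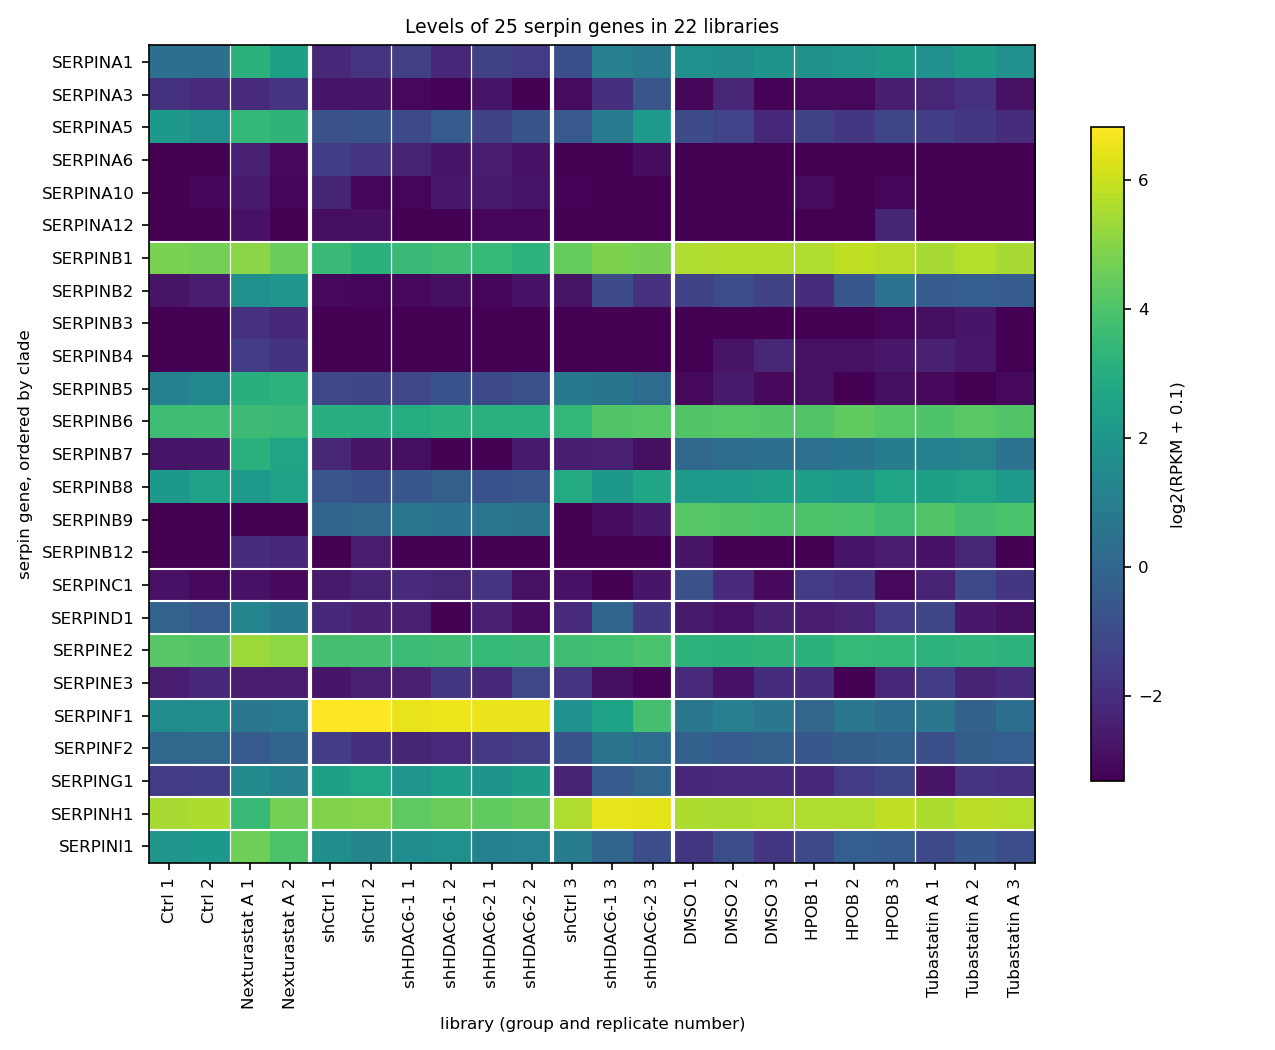
Levels of the 25 serpin genes (rows, ordered by clade) in the 22 libraries (columns, by group and replicate number), as log2(RPKM + 0.1) from dark to bright. SERPINF1 is brightest in replicates 1 and 2 of the hairpin experiment. SERPINB9 is brightest in the DMSO, HPOB and Tubastatin A libraries, and SERPINB7 and SERPINB2 brighten from Ctrl to Nexturastat A.

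Tested with edgeR's quasi-likelihood test and Benjamini-Hochberg adjustment over all genes (called: adjusted p under 0.05), DMSO against Ctrl had 7 of 20 tested serpin genes higher and 8 lower, where 30.6% of all genes were called higher and 32.3% lower. Both are vehicle libraries of wild-type cells on day 2, and stock, experiment and library preparation cannot be told apart between them. Some of these serpin genes were near 0 in 1 group and passed the filter on low counts through other libraries. Among them were SERPINB9, SERPINB7, SERPINB2 and SERPINC1, low in Ctrl, and SERPINB5, low in DMSO. The filter favours a difference in such genes, so no excess over these shares is read. SERPINB9 (chr6:2887266-2903280, minus strand) stood at 74.7, 71.2 and 66.1 CPM in the DMSO libraries and had 0 counts in both Ctrl libraries, which makes it at least 2923-fold higher against a floor of 3 counts over the group. Among the other higher genes SERPINB1 rose by 0.82 ± 0.10 (log2 fold change ± SE), and SERPINB7 had 266 counts against 15, a ratio of 21.1 (95% counting interval 12.6 to 38.3). SERPINB2, SERPINA1, SERPINB6 and the antithrombin gene SERPINC1 were called higher too, SERPINC1 on 36 against 6 counts with 0.75 CPM in 1 DMSO library and 0.03 in another. Lower in DMSO were SERPINB5 (maspin; 12 counts against 968), SERPINI1 (neuroserpin, an inhibitor of tissue plasminogen activator; -3.82 ± 0.27), SERPINA5 (protein C inhibitor; -3.78 ± 0.29), SERPIND1 (heparin cofactor II; 17 counts against 229), SERPINE2 (-0.97 ± 0.09), SERPINF1 (-0.91 ± 0.13), SERPING1 and SERPINA3. SERPINC1, SERPING1, SERPINA3 and SERPINB2 each lost their call without at least 1 library, and SERPINC1 and SERPINA3 also with DESeq2.

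The shCtrl and Ctrl libraries differ in stock, in day (0 against 2) and in carrying a hairpin, which cannot be told apart. In shCtrl replicates 1 and 2 against Ctrl, 4 of 20 tested serpin genes were higher and 11 lower (41.5% and 34.9% of all genes). SERPINF1 (chr17:1761959-1777574, plus strand) had 170 and 175 CPM against 4.45 and 4.84, a log2 fold change of 5.16 ± 0.12. SERPING1, the complement C1 inhibitor, had 13.3 and 16.1 against 0.59 and 0.68 CPM. SERPINB9 (478 counts against 0, at least 158-fold) and SERPINA6, which binds corticosteroids in plasma (44 counts against 0, at least 14.5-fold), were the other higher genes. With 0 counts in Ctrl, SERPINB9 and SERPINA6 passed the filter on low counts through other libraries, so the number of higher genes supports nothing. Of the 11 lower genes SERPINB8, an intracellular inhibitor (-3.35 ± 0.18), lay farthest below, then SERPINA5 (-2.99 ± 0.30), SERPINA1 (-2.99 ± 0.23), SERPIND1 (-2.85 ± 0.48), SERPINB5 (-2.83 ± 0.29), SERPINF2, the antiplasmin gene (-2.20 ± 0.36), SERPINB1, SERPINB6, SERPINH1, SERPINI1 and SERPINE2. The call of SERPINI1 (-0.54 ± 0.24) was lost without any of 3 libraries (Ctrl replicate 1, Ctrl replicate 2 or shCtrl replicate 2), with DESeq2 and with RLE scaling factors, while the other 14 genes kept theirs without any single library.

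Under Nexturastat A, serpin genes of several clades were higher than in Ctrl. Of 20 tested, 12 were called higher and 1 lower, against 21.1% of all genes higher and 15.5% lower. SERPINB2, SERPINB3, SERPINB4, SERPINB7 and SERPINB12 had at most 10 counts in either Ctrl library and so passed the filter on low counts through the Nexturastat A libraries alone; these genes had to differ, and their number supports nothing. Of the 15 tested serpin genes with more than 10 counts in a Ctrl library, 7 were called higher and 1 lower, with a median log2 fold change of 0.06. Over all 15423 genes with such counts, 16.3% were called higher and 16.8% lower, with a median of -0.03. SERPINC1, SERPINA6, SERPINA10, SERPINA12 and SERPINB9 were too low to test.

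The 2 largest ratios belonged to clade B genes of the chromosome 18 cluster. SERPINB7 (megsin), known from kidney mesangium and epidermis, had 0.11 and 0.13 CPM in the Ctrl libraries and 20.6 and 13.97 CPM with Nexturastat A. The groups did not come near each other, with 2166 counts against 15 and a ratio of 143 (95% counting interval 86.2 to 255). SERPINB2, an inhibitor of urokinase also known from macrophages and keratinocytes, went from 0.10 and 0.16 to 7.11 and 8.34 CPM, a ratio of 59.7 (36.6 to 105). SERPINB5, counted as a tumour suppressor in breast epithelium, went from 7.09 and 8.56 to 27.2 and 31.2 CPM (log2 fold change 1.88 ± 0.18, adjusted p = 0.00108). SERPINB5 kept its call without any single library and with every alternative processing tried.

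Further members of that cluster had few reads. SERPINB3 and SERPINB4, the squamous cell carcinoma antigens, which inhibit cathepsins and mast cell or neutrophil proteases, had 33 and 48 counts with Nexturastat A and 0 in Ctrl, at least 10.9-fold and 15.8-fold higher. The sequences of SERPINB3 and SERPINB4 are nearly identical, and how shared reads were counted is not given in the sources used here, so their split is uncertain. SERPINB12 had 22 counts against 0, at least 7.24-fold higher. SERPINB8 at the far end of the cluster had 19.99 and 27.1 CPM in Ctrl and 21.2 and 26.7 with Nexturastat A, and its groups overlapped (0.01 ± 0.20). Of 9 genes beside the cluster, 1 was called higher and 1 lower (21.1% and 15.5% of all genes). HMSD, which overlaps SERPINB8 on the same strand, rose by 2.18 ± 0.40 and PHLPP1 fell by 0.67 on the log2 scale, while BCL2 (0.14 ± 0.17), KDSR (-0.29 ± 0.13) and VPS4B (-0.15 ± 0.12), neighbours on the SERPINB5 side, named after their values were seen, did not pass the test. In the plot along the cluster, the serpin genes between SERPINB5 and SERPINB8 are those that passed the filter through the Nexturastat A libraries alone. SERPINB2 overlaps SERPINB10 and SERPINB3 overlaps SERPINB11, but both partners stayed under 10 counts in every library.

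**Figure D2:**
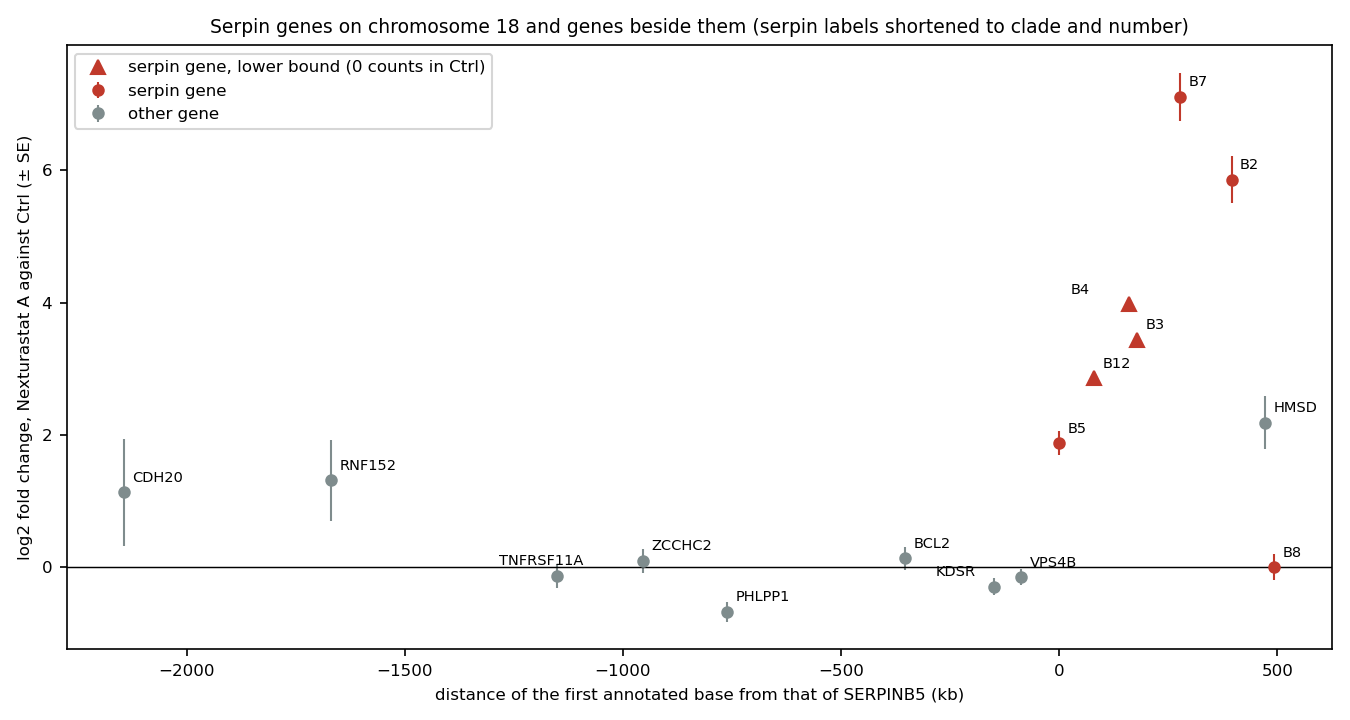
Log2 fold change with SE in Nexturastat A against Ctrl (vertical axis) by distance from SERPINB5 in kb (horizontal axis), for serpin genes (red) and genes beside them (grey). Triangles are lower bounds for genes with 0 counts in Ctrl. SERPINB5, B12, B4, B3, B7 and B2 lie at 1.88 or above, SERPINB8 lies at 0.01 and BCL2, KDSR and VPS4B lie between -0.29 and 0.14.

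Among the secreted serpins, SERPING1 had 0.59 and 0.68 CPM in Ctrl and 6.87 and 5.02 with Nexturastat A (3.22 ± 0.31, adjusted p = 0.00108). SERPINA1, the inhibitor of neutrophil elastase, went from 4.97 and 5.05 to 36.9 and 21.4 CPM (2.52 ± 0.28, adjusted p = 0.00165). SERPINI1 went from 8.32 and 9.14 to 52.5 and 34.9 CPM (2.31 ± 0.23, adjusted p = 0.00117). In each, both treated libraries were above both controls and replicate 1 was the higher of the treated pair. SERPINA5 rose by 1.42 ± 0.19, from 10.97 and 8.69 to 28.0 and 25.1 CPM, and SERPIND1 by 1.41 ± 0.30, from 2.11 and 1.59 to 5.86 and 4.11. The other clade A genes with reads were low: SERPINA10 had 27 counts, 22 of them in replicate 1, against 4, a ratio of 6.66 (2.32 to 26.2) with no test, and SERPINA3 did not pass it (0.06 ± 0.44). Liver markers stayed near 0 beside these plasma protein genes: the list of defining liver genes summed to 0.31 to 0.36 CPM in Ctrl and 0.80 to 1.45 CPM with Nexturastat A, with APOB and TTR at 0 in Ctrl. The squamous list summed to 1.04 to 1.53 CPM in Ctrl and 3.95 to 4.37 with Nexturastat A, with IVL and SPRR1B at 0 in both. The fibroblast list summed to 6.68 to 7.98 CPM in Ctrl and 26.6 to 28.4 with Nexturastat A. Genes that told the stocks apart in earlier results summed to 0.65 to 1.29 and 2.85 to 3.79 CPM, most of it MMP1 in the treated libraries, and CDKN2A had 2 counts there and 0 in Ctrl. The part of these lists in the serpin values was not tested.

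SERPINE2, protease nexin, was the most abundant of the genes called. It went from 56.6 and 54.2 to 128 and 106 CPM (1.06 ± 0.14, adjusted p = 0.0029). On the merged exon length used, 3149 bases, it reached 37.2 ± 5.02 RPKM and came first of the 25 genes, with 22.5% of their sum. Its longest annotated transcript has 5989 bases, which would give a lower RPKM, so this rank and share depend on the length used. SERPINB1 (28.0 ± 7.30), SERPINI1 (19.8 ± 5.67) and SERPINH1 (18.7 ± 9.99) followed, and each lay within the summed SDs of its neighbour.

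SERPINF1 was the only member called lower, from 4.45 and 4.84 to 2.40 and 2.66 CPM (-0.90 ± 0.24, adjusted p = 0.0261). SERPINH1 (chr11:75562056-75572783, plus strand) had 218 and 231 CPM in Ctrl and 56.7 and 125 with Nexturastat A. Both treated libraries were lower, but they lay far from each other, and the log2 fold change of -1.32 ± 0.40 was not called (adjusted p = 0.0642; 1.40e-05 to 0.217 over the alternatives tried). It was called by DESeq2, with a replicate block, with GC and length trends removed, and without either Nexturastat A library (-0.86 without replicate 1, -1.999 without replicate 2). SERPINB1, SERPINB6, SERPINB8, SERPINF2 and SERPINE3 did not pass the test either, with log2 fold changes between -0.46 and 0.04. Without Ctrl replicate 1 or without Ctrl replicate 2, SERPINF1, SERPINB3, SERPINB12 and SERPIND1 lost their calls and 9 serpin genes remained called each time.

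**Figure D3:**
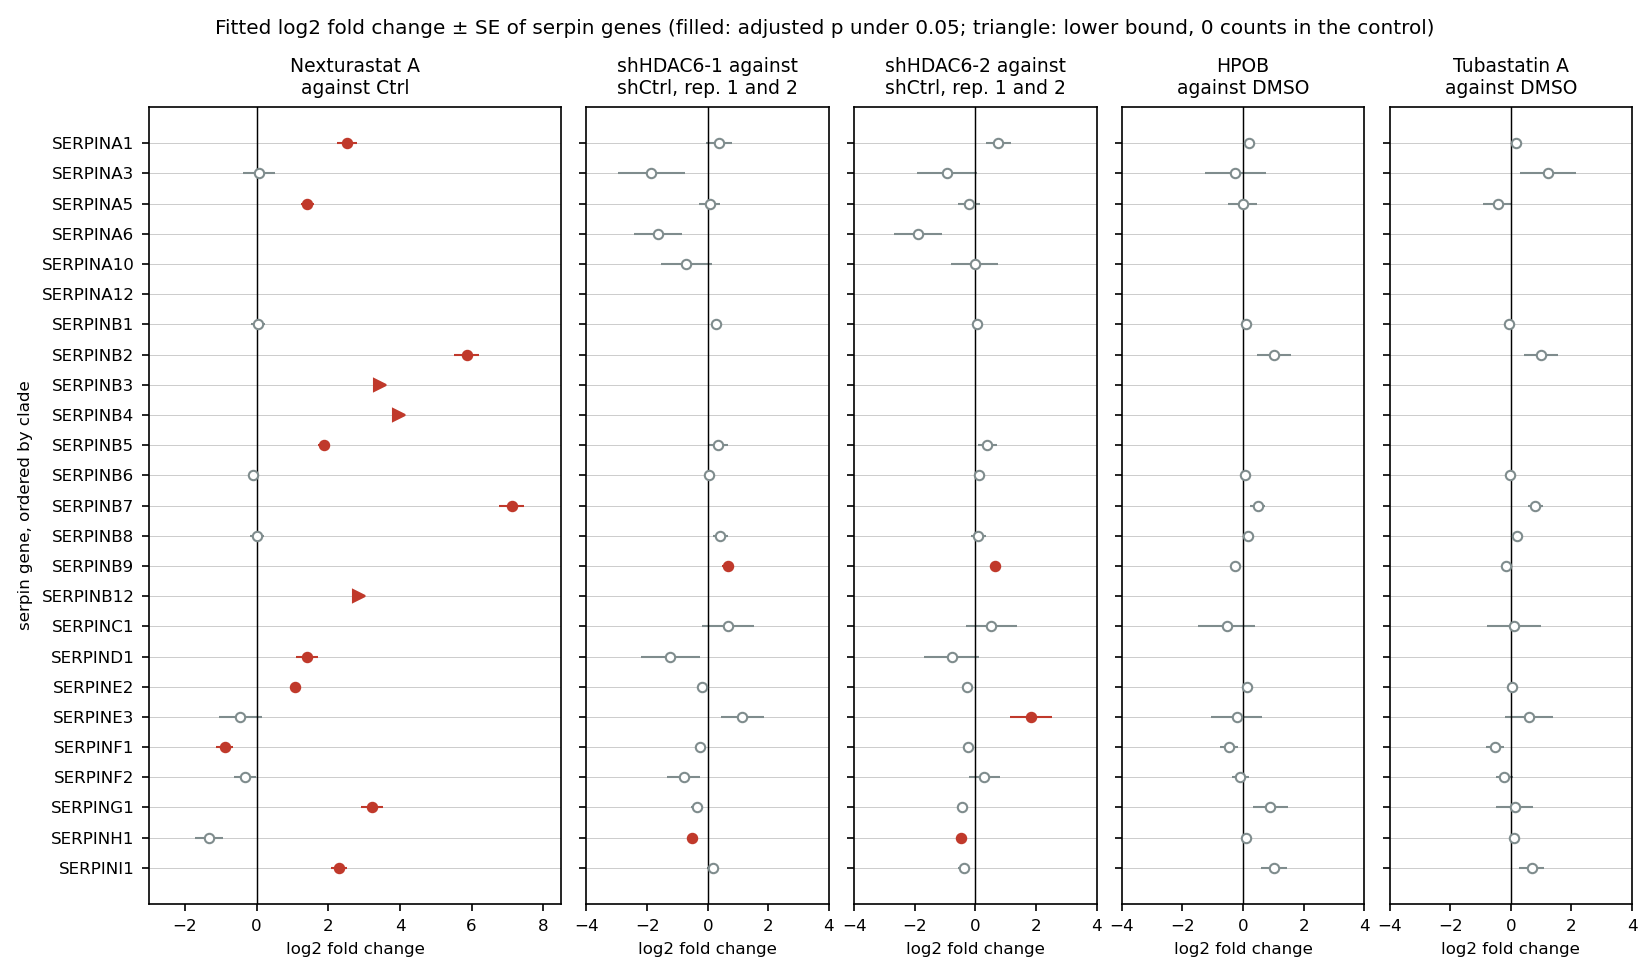
Fitted log2 fold change with SE of each tested serpin gene (rows, ordered by clade) in 5 comparisons (panels, horizontal axes in log2 units; the first panel has a wider range). Filled red points were called, open grey points were not, and triangles are lower bounds; Nexturastat A has 13 called genes, shHDAC6-1 has 2, shHDAC6-2 has 3, and HPOB and Tubastatin A have 0.

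The proteases that serpins act on, and the other inhibitors, were followed as lists. Under Nexturastat A, 21.1% of all genes were called higher and 15.5% lower. Over the 15423 genes that were not low in Ctrl, as given above, these shares were 16.3% and 16.8%. Genes near 0 in Ctrl could pass the filter through the Nexturastat A libraries alone, and such genes had to differ. They were not set apart in these lists. The list counts and medians may therefore be raised by them, and no excess over the background is read from them. Under Nexturastat A, 9 of 19 tested trypsin-like serine proteases, from 32 listed, were called higher and 1 lower (median log2 fold change 0.93). Of those called and not low (mean log2 CPM at least 0), ST14 (matriptase, 2.03 ± 0.25), HTRA1 (1.87 ± 0.19) and PRSS3 (0.83 ± 0.18) differed most. Of 14 genes of plasminogen activation and its receptors, 6 were higher and 1 lower (median 0.30), with the tissue factor gene F3 at 1.85 ± 0.15 and the thrombomodulin gene THBD at -1.03 ± 0.18. Of 14 lysosomal cathepsins, targets of several clade B serpins, 6 were higher and 1 lower (median 0.50), among them CTSH (1.46 ± 0.18) and CTSV (0.89 ± 0.17). Of 23 inhibitors outside the serpin family, 6 were higher and 5 lower (median 0.78), with SLPI, an inhibitor of neutrophil elastase, at 4.798 ± 0.40 and SPINK1, a trypsin inhibitor, at 4.20 ± 0.65. SPINK1 had only 12 counts in Ctrl, and its CPM went from 0.10 ± 0.05 to 1.84 ± 1.04 (SD).

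Fewer serpin genes differed with the HDAC6 hairpins in replicates 1 and 2. The hairpins share the same shCtrl libraries, so their values are given side by side. With shHDAC6-1, 1 of 19 tested serpin genes was called higher (15.3% of all genes) and 1 lower (15.2%). With shHDAC6-2, 2 of 19 were called higher (14.4%) and 1 lower (13.2%). SERPINA12, SERPINB2, SERPINB3, SERPINB4, SERPINB7 and SERPINB12 were too low to test. Of these, SERPINB7 had 23 counts in shCtrl, 4 with shHDAC6-1 and 10 with shHDAC6-2, count ratios of 0.199 (0.0499 to 0.581) and 0.412 (0.175 to 0.8996). The median log2 fold changes of the 19 were 0.05 and -0.03, against -0.02 and 0.00 over all genes.

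SERPINB9 had 3.63 and 3.9997 CPM in shCtrl, 6.28 and 5.62 with shHDAC6-1 and 6.03 and 5.67 with shHDAC6-2. All 4 hairpin libraries were above both controls, by 0.66 ± 0.19 on the log2 scale (adjusted p = 0.00968) and 0.65 ± 0.19 (adjusted p = 0.0113), but the calls of SERPINB9 were lost without replicate 1 of its own hairpin and, for shHDAC6-2, also without shCtrl replicate 1. SERPINH1 was lower, at 144 and 154 CPM in shCtrl, 94.4 and 112 with shHDAC6-1 and 99.4 and 110 with shHDAC6-2. On the log2 scale this came to -0.51 ± 0.12 with shHDAC6-1 (adjusted p = 0.0024) and -0.48 ± 0.12 with shHDAC6-2 (adjusted p = 0.00469), and the call for shHDAC6-1 was lost without shHDAC6-1 replicate 1. SERPINE3 was called with shHDAC6-2 alone, on 80 counts against 22, a ratio of 3.44 (2.13 to 5.80), and passed the filter on low counts through the hairpin libraries. It overlaps INTS6 on the opposite strand and strand use in the counting is not given, so reads of these genes cannot be told apart, and its call was lost without any of shCtrl replicates 1 and 2 or shHDAC6-2 replicate 2.

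Further members were not called and are given with their values only. The share of all genes whose hairpin and control libraries lay apart was not computed, so no separation is read from them. SERPINF1, the leading serpin of this stock, had 170 and 175 CPM in shCtrl, 138 and 144 with shHDAC6-1 and 144 and 143 with shHDAC6-2 (-0.26 ± 0.11 and -0.23 ± 0.11; adjusted p = 0.0781 and 0.133). SERPING1 had 13.3 and 16.1 CPM, then 9.71 and 12.7, then 9.27 and 11.8 (-0.37 ± 0.17 and -0.44 ± 0.17; adjusted p = 0.107 and 0.0566). SERPINA6 had 44 counts in shCtrl and 12 with each hairpin (ratios 0.31 and 0.26), and passed the filter on low counts through shCtrl alone. No tested serpin gene was called between the hairpins: shHDAC6-2 against shHDAC6-1 had 0 of 19 called by edgeR and 0 by DESeq2, with 1 (SERPINI1, -0.56 ± 0.19) at an unadjusted p under 0.05, and 0% of all genes were called. That does not show that they act alike. When all 9 libraries entered 1 fit, 0 serpin genes were called for either hairpin, and SERPINH1 changed sign (0.24 and 0.21).

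In replicate 3, with 1 library a group and no test, 7 of 17 serpin genes with 10 or more counts in either library were more than 2-fold higher with shHDAC6-1 and 2 were more than 2-fold lower (30.2% and 32.8% of all genes). Of 18 with shHDAC6-2, 8 were higher and 2 lower (27.8% and 32.5% of all genes). SERPINA3 and SERPINB2, with 6 control counts each, entered through the hairpin libraries alone, as did SERPINB9 (0 control counts) with shHDAC6-2. SERPINE3, with 6 and 1 hairpin counts, entered through the control alone. The rule favours a difference in such genes, so no excess over these shares is read. Per length, SERPINH1 led in both hairpin libraries as in their control, at 87.3 and 84.1 against 49.1 RPKM, and SERPINB1 was second at 28.3 and 26.9 against 21.1.

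The serpin genes past 2-fold with both hairpins were low in this control. SERPINA1 had 1.85 CPM in shCtrl and 8.28 and 7.06 with the hairpins, in the order shHDAC6-1 and shHDAC6-2 as in all values of this paragraph. SERPINA5 had 1.59, then 4.39 and 11.2 CPM, and SERPINF2 had 1.20, then 3.24 and 2.48. These secreted inhibitors of elastase, protein C and plasmin were thus all above their control. SERPING1 had 0.26, then 1.62 and 2.25 CPM. SERPINA3, the inhibitor of cathepsin G, had 0.10, then 0.66 and 2.27, on only 6 control counts. SERPINB2 likewise had 6 control counts, with ratios of 8.92 (3.87 to 25.3) and 3.79 (1.44 to 11.7). SERPIND1 passed 2-fold with shHDAC6-1 alone (0.36, then 2.30 and 0.53 CPM), and SERPINF1 (5.20, then 9.02 and 21.6) and SERPINB9 (0 counts, then 7 and 12) with shHDAC6-2 alone. Lower with both were SERPINI1 (4.17, then 1.97 and 0.98 CPM) and SERPINE3 (0.50, then 0.09 and 0.02).

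SERPINF1, SERPING1 and SERPINB9 are also serpins that stood above Ctrl in the stock of replicates 1 and 2. Of the other serpins higher here, SERPINA1, SERPINA5, SERPINF2 and SERPIND1 were called lower than Ctrl in that stock, and SERPINA3 and SERPINB2 were not called. CDKN2A, at 8.83 and 29.05 CPM in these hairpin libraries and 0 in their control, is high in that stock. Its part in these ratios was not tested. SERPINH1 had 239, 424 and 409 CPM, higher here and lower in replicates 1 and 2. The squamous list summed to 98.0 and 33.8 CPM in the hairpin libraries and 0.94 in their control. Nearly all of it was KRT14, with IVL and SPRR1B at 0. The list of macrophages and monocytes summed to 427 and 318 against 92.7 CPM, with PTPRC at 0 in both hairpin libraries and above 0 in their control. The fibroblast list summed to 21.1 and 21.7 CPM against 4.21. The part of these lists was not tested either. The plot of both replicate sets shows SERPINA1, SERPINB1 and SERPINB6 above 0 in both for both hairpins. In replicates 1 and 2, however, SERPINB1 with shHDAC6-2 (0.001) and SERPINB6 with either hairpin (0.03 and 0.07) were next to 0. SERPINH1, SERPINF1, SERPING1, SERPINE3, SERPIND1, SERPINB5, SERPINB8 and SERPINE2 lie on opposite sides for both. Some of these ratios were next to 0. SERPINB8 with shHDAC6-2 was at 0.06 in replicates 1 and 2, and SERPINE2 with shHDAC6-1 at 0.04 in replicate 3. The share of all genes on opposite sides by this rule was not computed. By a stricter rule, given further below, it was 4 of 11 serpin genes and 31.95% of all genes. In replicate 3 the counting intervals of SERPINE2 and SERPINB5 with shHDAC6-1, and of SERPIND1 with shHDAC6-2, included a ratio of 1.

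**Figure D4:**
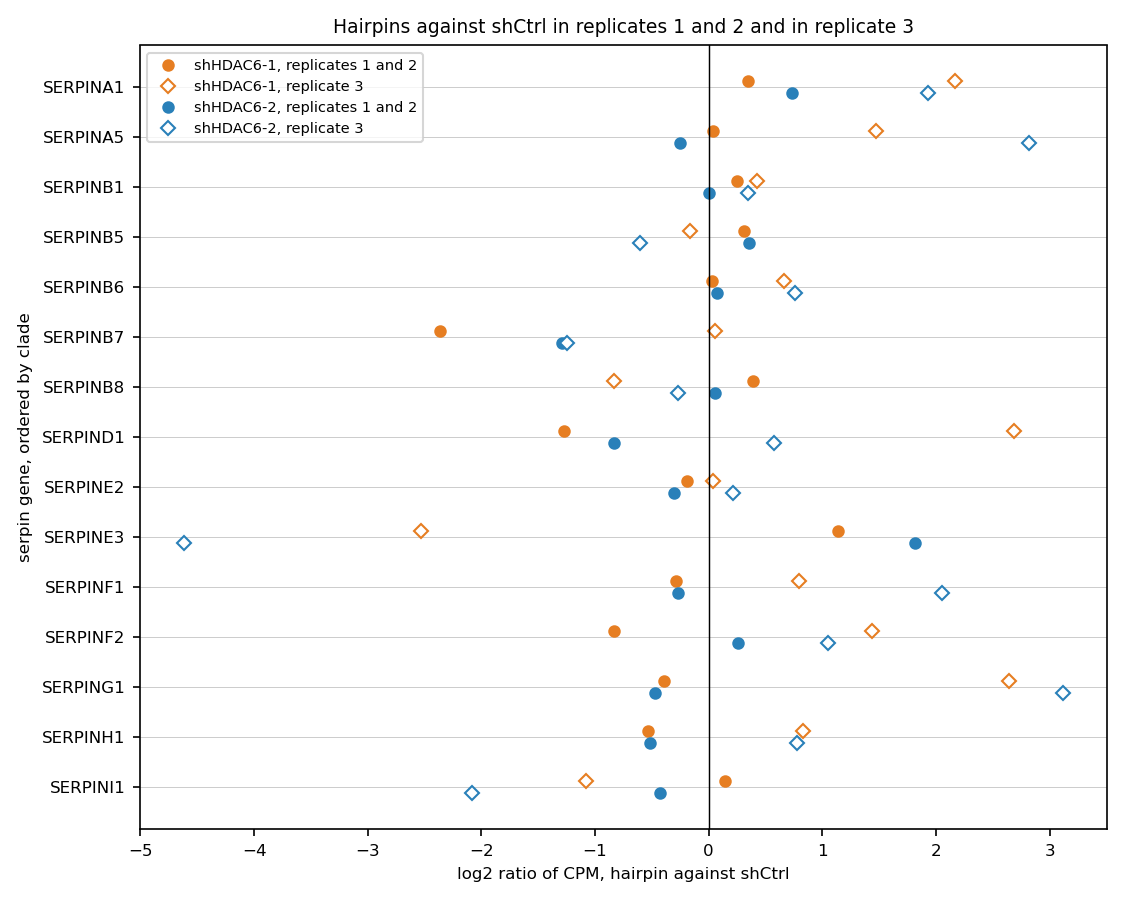
Log2 ratio of CPM, hairpin against shCtrl (horizontal axis), for serpin genes with 10 or more counts in the shCtrl libraries of both sets (rows). Filled circles are means of replicates 1 and 2, open diamonds are the single libraries of replicate 3, orange is shHDAC6-1 and blue is shHDAC6-2; SERPINH1 lies at -0.53 and -0.51 in replicates 1 and 2 and at 0.83 and 0.78 in replicate 3.

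HPOB and Tubastatin A were each set against the same 3 DMSO libraries, so their values are not independent and, with no dose given, are not compared with each other. No serpin gene was called with either compound: 0 of 17 tested by edgeR's quasi-likelihood test for each, against 0.0261% of all genes with HPOB and 0% with Tubastatin A. At an unadjusted p under 0.05 there were 2 with HPOB (SERPINI1 and SERPINB9) and 1 with Tubastatin A (SERPINB7), and DESeq2 called 0 with each. The groups did not overlap for 2 serpin genes higher with HPOB (SERPINB7 and SERPINH1; 12.0% of all genes) and 1 lower (SERPINB9; 9.54%). With Tubastatin A they did not overlap for 2 higher (SERPINB7 and SERPINB2; 8.51%) and 0 lower (8.44%).

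SERPINB7 had 2.26, 2.61 and 2.86 CPM with DMSO, 2.99, 3.38 and 4.42 with HPOB and 4.99, 5.30 and 3.19 with Tubastatin A (log2 fold changes 0.48 ± 0.24 and 0.81 ± 0.24; adjusted p = 0.503 and 0.857). SERPINB2 had 0.66, 0.92 and 0.65 CPM with DMSO, 0.32, 1.25 and 2.98 with HPOB and 1.46, 1.56 and 1.47 with Tubastatin A (1.03 ± 0.56 and 1.01 ± 0.56; adjusted p = 0.515 and 0.857). Its HPOB libraries lay on both sides of the controls. SERPINB9 had 74.7, 71.2 and 66.1 CPM with DMSO and 64.6, 62.4 and 52.4 with HPOB (-0.25 ± 0.11, adjusted p = 0.472), and SERPINH1 stayed between 224 and 276 CPM in all 9 libraries. SERPINA6, SERPINA10, SERPINA12 and SERPINB3 had 0 counts with DMSO. SERPINB5, higher with Nexturastat A in the other stock, had 12 counts in the DMSO libraries together, 8 with HPOB (ratio 0.667, 0.237 to 1.78) and 4 with Tubastatin A (0.302, 0.0711 to 0.997). SERPIND1 had 17 counts with DMSO and 41 with HPOB (2.41, 1.34 to 4.53), 27 of them in 1 library, and 40 with Tubastatin A (2.13, 1.18 to 4.01), 31 of them in 1 library. SERPINA3 had 21 counts with DMSO, 18 of them in 1 library, and 54 with Tubastatin A (2.33, 1.39 to 4.07), where its 3 libraries overlapped the controls. These ratios carry counting intervals and no call.

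**Figure D5:**
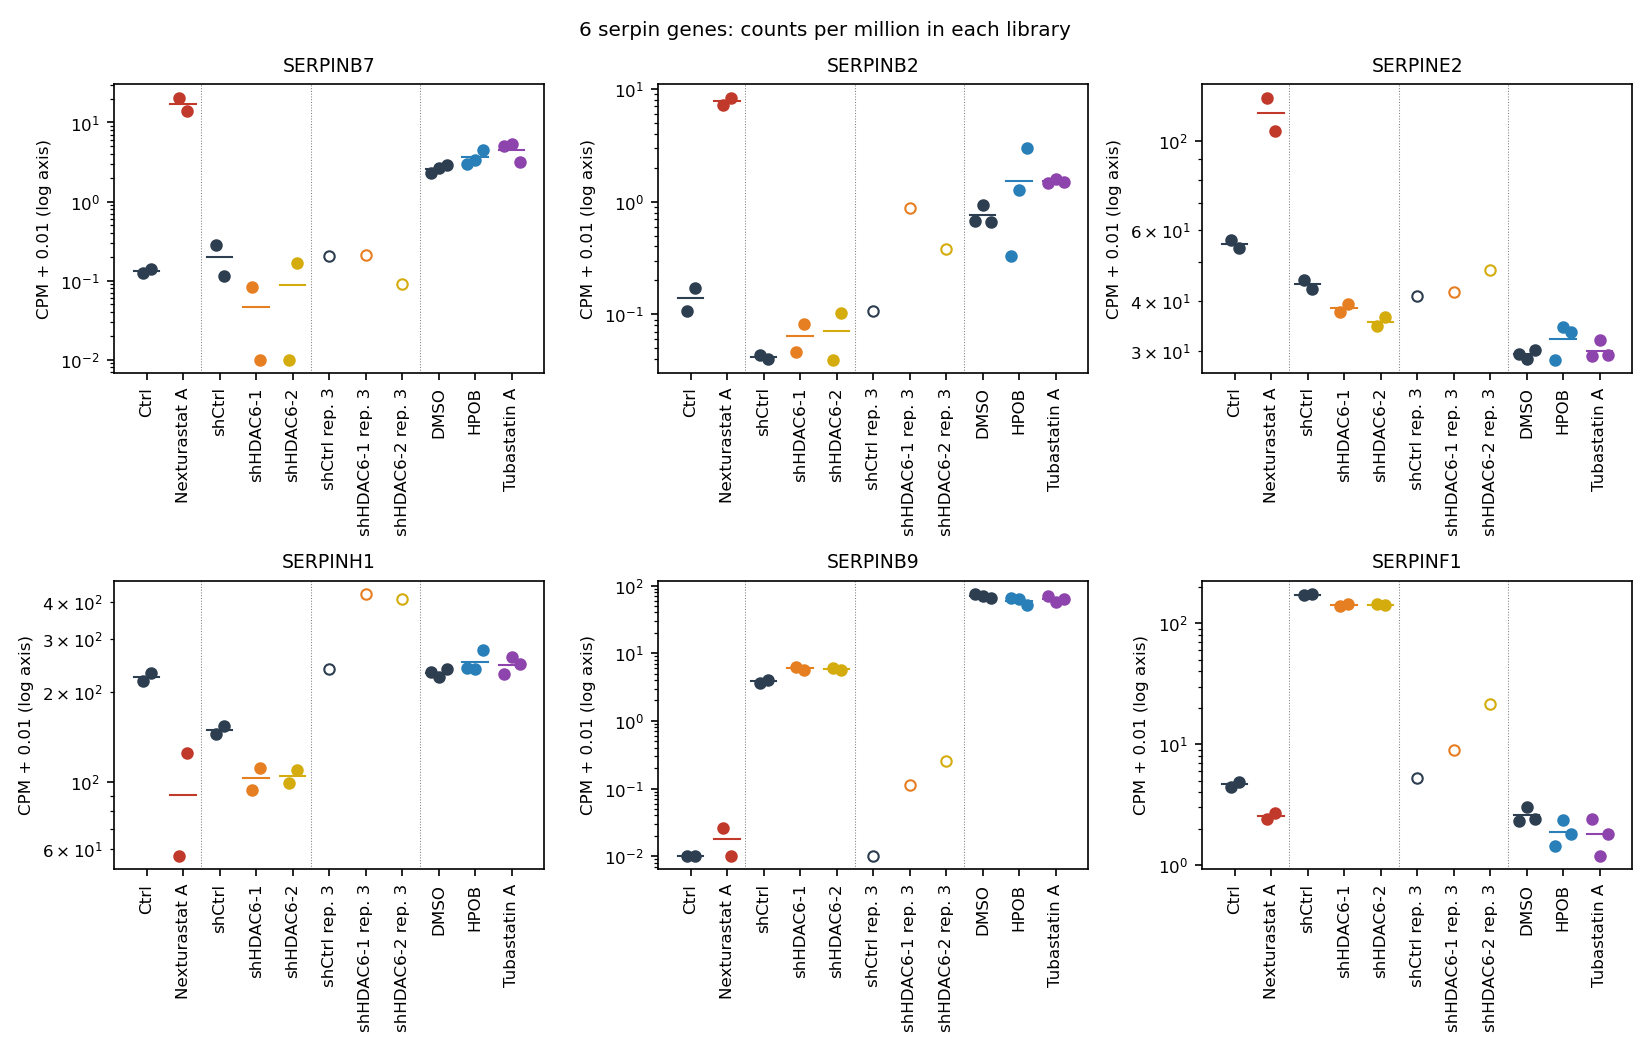
CPM + 0.01 on log axes for 6 serpin genes (panels) in every library (points; bars are means of groups with more than 1 library; open points are the single libraries of hairpin replicate 3). SERPINE2 is at 128 and 106 CPM with Nexturastat A against 56.6 and 54.2 in Ctrl. SERPINB7 is at 20.6 and 13.97 CPM with Nexturastat A against 0.11 and 0.13 in Ctrl. SERPINF1 is highest in replicates 1 and 2 of the hairpin experiment, and is at 21.6 CPM in shHDAC6-2 replicate 3.

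Among the genes of plasminogen activation in replicates 1 and 2 of the hairpin experiment, the urokinase gene PLAU was higher with both hairpins (0.77 ± 0.14 and 0.71 ± 0.14), as was VLDLR, a receptor that takes up protease and inhibitor complexes (0.80 ± 0.13 and 0.87 ± 0.13). Of 15 tested genes of plasminogen activation, 5 were called higher and 1 lower with each hairpin, where 15.3% and 14.4% of all genes were called higher and 15.2% and 13.2% lower. The gene called lower was the receptor gene LRP1 with shHDAC6-1 (-0.63 ± 0.16) and PLGRKT with shHDAC6-2 (-0.75 ± 0.18). Of 21 trypsin-like proteases, 1 was higher and 4 lower with shHDAC6-1, and 0 were higher and 3 lower with shHDAC6-2, with KLK7 at -0.82 ± 0.16 and -0.92 ± 0.16. Of 20 inhibitors outside the family, 2 were higher and 2 lower with each, SPINT2, an inhibitor of matriptase and hepsin, among the lower at -0.84 ± 0.12 and -0.89 ± 0.12. With HPOB and Tubastatin A, 0 genes of these lists were called by edgeR.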

How the data were processed

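Total RNA was sequenced from 22 libraries labelled MDA-MB231. The deposited values are raw read counts per gene symbol, made by the authors with Trim Galore 0.6.7, STAR 2.7.9a and featureCounts 2.0.3 on GRCh38, per the submitters' processing notes, which also name DESeq2 1.30.1. For the annotation, strand setting and shared reads: not given in the sources used here. Serpin members and gene lists were chosen with earlier results of these data known.

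Each experiment was fitted apart with edgeR 4.0.16 (R 4.3.3): TMM scaling, filterByExpr (minimum count 10, minimum total 15), the robust quasi-likelihood test and Benjamini-Hochberg adjustment over all genes tested. Fold changes carry the SE. The hairpin fit used replicates 1 and 2, and replicate 3 was described by count ratios past 2-fold. The fit of the stocks used Ctrl, DMSO and shCtrl replicates 1 and 2. CPM come from 1 TMM scaling of all 22 libraries, and RPKM divide CPM by merged exon length (basic transcript set of GENCODE 29). Serpin genes under 30 counts in the lower group are mostly given as count ratios with a 95% interval, which covers counting error only. Those with 0 control counts are set against a floor of 3 counts. The test was checked on simulated data. Replicate pairs of 1 group differed by more than sampling noise (chi-square per degree of freedom 4.42 to 1885 over 20 pairs). Genes outside the family were taken from up to 3 called genes a list with the largest absolute log2 fold change at a mean log2 CPM of 0 or more, and all serpin members described were named. 1 further symbol of the family stayed in the fits and is not reported here, and member counts, sums and shares leave it out.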

Additional observations from a re-analysis of the deposited data

Results flagged for a closer look

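In 4 of 11 serpin genes with at least 30 counts in both shCtrl sets, every hairpin library lay on one side of its control in replicates 1 and 2 and on the other side in replicate 3. The same held for 31.95% of all 13385 genes with such counts, so the share among serpin genes is near the background. The difference between the replicate sets was not tested. As log2 ratios of mean CPM over both hairpins, SERPINH1 stood at -0.52 in replicates 1 and 2 and at 0.80 in replicate 3. SERPINF1 stood at -0.28 and 1.56, SERPINE2 at -0.25 and 0.13, and SERPINB5 at 0.34 and -0.37. In the hairpin libraries of replicate 3, CDKN2A was at 8.83 and 29.05 CPM against 0 in the control, beside the SERPINF1 values of 9.02 and 21.6 CPM against 5.20.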

How the results depend on the processing

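With 2 or 3 libraries a group, calls of low serpin genes depended on single libraries. Of 13 serpin genes called under Nexturastat A, 9 to 14 were called without single libraries and 14 with a replicate block. For shHDAC6-1 the 2 called became 4 with a replicate block, 1 to 4 without single libraries (4 without shCtrl replicate 1, 1 without shHDAC6-1 replicate 1) and 0 with all 9 libraries. For shHDAC6-2 the 3 called became 5 with GC and length trends removed and 0 with all 9 libraries. In that fit SERPINH1 reversed, to 0.24 and 0.21, and the cause was not tested. For HPOB and Tubastatin A, 0 serpin genes were called with every alternative run, among them 1 without both HPOB replicate 3 and Tubastatin A replicate 2, chosen after seeing the data. Over all genes, the calls under Nexturastat A fell from 6112 to 1781 and 1921 without Ctrl replicate 1 and 2, those of HPOB went from 4 to 120 with DESeq2, and those of Tubastatin A from 0 to 23. In replicate 3, 9 and 10 serpin genes past 2-fold became 13 and 13 at 1.5-fold and 6 and 7 at 4-fold. Over all alternatives, the serpin genes called in a comparison, with SERPINH1 under Nexturastat A and SERPINB7 and SERPINB2 under HPOB and Tubastatin A, gave 404 values that kept their direction and side of the threshold, 5 that gained a call (all SERPINH1), 33 that lost one and 2 that reversed. Calls gained by other serpin genes are not in this tally. Correlations of deviations between same-numbered libraries were 0.20 for Nexturastat A and -0.18 to 0.49 for the hairpins. For HPOB and Tubastatin A they were -0.31 to 0.53. With 2 libraries a group, the 2 deviations mirror each other. These values therefore do not settle whether replicate numbers pair the libraries.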

Other observations

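Genes that flank the other 2 serpin clusters were followed under Nexturastat A as well, where 21.1% of all genes were called higher and 15.5% lower. Of 10 tested beside the clade B cluster on chromosome 6, 3 were called higher and 1 lower by edgeR's quasi-likelihood test. NQO2, a quinone reductase, stood at 1.15 (log2 fold change) and RIPK1 at -0.57. SERPINB1 and SERPINB6 within the cluster did not pass the test. Of 9 beside the clade A cluster on chromosome 14, 3 were called higher and 0 lower, with PPP4R4 at 1.00 and CLMN at 0.84. Proprotein convertases, which cleave secreted precursors, had 0 higher and 2 lower of 6 tested, with PCSK6 at -0.77 and MBTPS1 at -0.56.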
